A study of Mus musculus with 128 samples.

Results

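The comparison described here is the difference between 2 fat depots in how they responded to diet in SM/J mice. For each gene it is the high-fat minus low-fat difference in brown fat minus the same difference in white fat, on the log2 scale, and it is called the depot difference below. A positive value means that the level in brown fat, relative to white fat, was higher on the high-fat than on the low-fat diet. The members are all 64 SM/J libraries of the 128 in the series: interscapular brown fat and reproductive white fat of 32 mice of the inbred SM/J strain, with 4 mice for each combination of diet (highfat or lowfat), age (20 or 30 weeks) and sex. The labels name no engineered allele and no treatment other than diet, and the composition of the diets is not given in the sources used here. The number in the library titles pairs each brown fat library with a white fat library, taken here as the same mouse, so the test was made on the brown minus white difference within each mouse. Another 64 libraries come from 32 mice of the LG/J strain under the same diets, ages and sexes and are used only to ask where SM/J differs.

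Of 14663 genes listed in at least 1 of the 4 SM/J tables, 12391 were in all 4 and were tested. The deposited totals were 16293500 to 20803600 normalised counts per library, and libraries of the same group correlated at 0.926 to 0.993. The depot labels fit their markers: Ucp1, the uncoupling protein that defines brown adipocytes, was 109218 (59344 to 137489) on the low-fat and 92143 (60323 to 126071) on the high-fat diet in brown fat and 219.9 (6.43 to 6025) on the low-fat and 409 (81.3 to 1949) on the high-fat diet in white fat (median, lowest and highest of 16 mice, in rescaled normalised counts). In white fat, 1 low-fat 30-week male had a summed macrophage marker level of 238495 against a low-fat median of 62310, and 1 low-fat 20-week female had a smooth muscle sum of 121273 against 27677 and a reproductive tract sum of 9039 against 1229. Skeletal muscle markers in brown fat summed to between 940.0 and 90906, and 12 mice, 6 on each diet, were above 20000. In white fat the highest sum was 26201, in 1 low-fat 20-week female, against a low-fat median of 1746. This female is among the 12 mice. The summed mesothelial markers of white fat had a median of 7817 on the low-fat and 1845 on the high-fat diet. The part of these tissue markers in the results was not tested beyond the values without the animals concerned, given beside the gene groups. In bulk tissue, fewer cells of a type and less RNA per cell cannot be told apart. Each diet and depot was deposited as a table of its own, scaled separately, so diet and table cannot be told apart either.

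Brown adipocytes burn fatty acids and glucose to make heat through uncoupled respiration, and they also synthesise fatty acids at a high rate from citrate exported from mitochondria. White adipocytes store triglyceride and secrete leptin, adiponectin and adipsin. Both kinds of cell control lipid synthesis through SREBP transcription factors, which the protein INSIG1 holds in the endoplasmic reticulum when sterols are plentiful. Interferons, in contrast, act through transcription factors that switch on antiviral genes.

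The diet response differed between depots for a large share of genes. The depot difference passed an adjusted p of 0.05 for 4998 of 12391 genes (40.3%), of which 2492 (20.1%) were positive and 2506 (20.2%) negative (limma, Benjamini-Hochberg adjustment over all genes). Its median size among these genes was 0.36, and 334 genes, 190 positive and 144 negative, reached 1 on the log2 scale. In brown fat alone diet changed 6232 genes (50.3%), and in white fat alone 4596 (37.1%). Among the genes with a positive depot difference, 358 rose in brown fat and fell in white fat, 1050 rose in brown fat only and 643 fell in white fat only. Among those with a negative one, 263 fell in brown fat and rose in white fat, 1210 fell in brown fat only and 525 rose in white fat only. The gap between the depots was smaller on the high-fat diet for 2756 of the 4998 genes and larger for 1338, and its sign differed between diets for 904.

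How the 4 tables were put on a common scale set the balance of directions. With the median ratio used here, the median depot difference over all genes was 0.01. With each library scaled to its total it was 0.17, with 5514 genes (44.5%) positive and 1026 (8.28%) negative, and with the deposited values taken as they are it was 0.22, with 6563 (53%) positive and 817 (6.59%) negative. Counts under these scalings below are to be read against these shares. List counts of depot differences with the median ratio are to be read against 20.1% positive and 20.2% negative. With the upper quartile the counts were 3258 and 1902. Directions below are therefore relative to the median gene, and 3267 genes (26.4%) were called with the same sign under all 5 scalings, 2450 (19.8%) of them positive and 817 (6.59%) negative. For 49 genes (0.395%) the within-mouse depot gaps of the 16 high-fat mice and the 16 low-fat mice did not overlap, 12 positive and 37 negative. Of these 49, 7 belong to the cholesterol synthesis list and 3 to the fatty acid synthesis list. The plot of the diet change in white fat against that in brown fat places these gene groups.

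**Figure D1:**
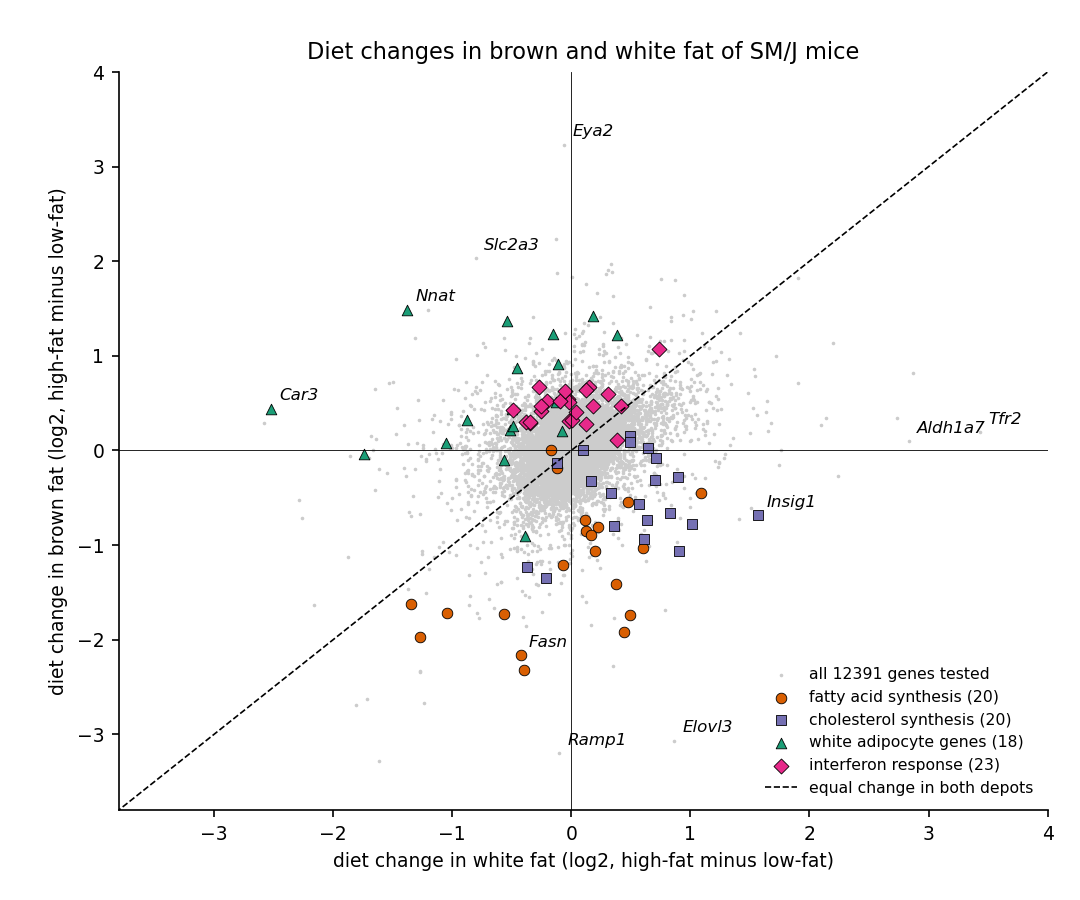
Diet change in white fat (x axis, log2 high-fat minus low-fat) against diet change in brown fat (y axis, same unit) for the 12391 genes tested in SM/J. Grey points are all genes, coloured symbols are members of 4 gene lists, and the dashed line marks equal change in both depots. Most lipid synthesis genes lie below the line, and most white adipocyte and interferon genes lie above it.

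The genes with the largest positive depot difference rose in brown fat, fell in white fat, or did both. Eya2, a transcriptional coactivator with phosphatase activity (chr2:165595032-165771727, GRCm38), led the positive side. Its level in brown fat was 61.3 (16.3 to 231) on the low-fat and 495 (235 to 747) on the high-fat diet. In white fat it was 347 (133 to 445) on the low-fat and 282 (118 to 429.6) on the high-fat diet. Every high-fat brown fat library was above every low-fat one, whereas the white fat groups overlapped over most of their range. The depot difference of Eya2 was 3.30 ± 0.23 (adjusted p = 3.7e-11), made of a change of 3.23 ± 0.23 (adjusted p = 1.2e-11) in brown fat and -0.06 ± 0.12 (adjusted p = 0.71) in white fat. Slc2a3, the glucose transporter GLUT3, was 74.8 (53.1 to 168) on the low-fat and 348 (184 to 735) on the high-fat diet in brown fat and 334 (196 to 813) on the low-fat and 209 (110.3 to 281) on the high-fat diet in white fat. The brown fat groups did not overlap, and the white fat groups overlapped in the region from 196 to 281. Its depot difference was 2.83 ± 0.21 (adjusted p = 1.0e-10).

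Other genes on the positive side are abundant in white fat and differed less between the depots on the high-fat diet. Car3, a carbonic anhydrase abundant in white adipocytes (chr3:14863512-14872523), was 224080 (49585 to 356390) on the low-fat and 32807 (17351 to 74078) on the high-fat diet in white fat. In brown fat it was 15527 (6492 to 31371) on the low-fat and 21302 (10578 to 47930.1) on the high-fat diet. The white fat groups overlapped only between 49585 and 74078, and the brown fat groups overlapped widely. Car3 fell by 2.52 ± 0.21 in white fat (adjusted p = 1.3e-09) and rose by 0.44 ± 0.16 in brown fat (adjusted p = 0.024), a depot difference of 2.96 ± 0.31 (adjusted p = 2.2e-08). Nnat, the imprinted gene for the membrane protein neuronatin, had a depot difference of 2.87 ± 0.33 (adjusted p = 9.1e-08), with a rise of 1.49 in brown and a change of -1.38 in white fat. Its reads can overlap those of Blcap, which lies around it on the other strand, and the strand of counting is not stated. The same holds for Acss2, Acsl5, Adcy3, Plin4, Col18a1, Rarres2 and the pair Ctsb and Fdft1, whose loci overlap genes on the other strand. Phgdh, the first enzyme of serine synthesis, was 145 (40.8 to 343) on the low-fat and 351 (238 to 595) on the high-fat diet in brown fat and 3666 (1523 to 5484) on the low-fat and 1601 (857 to 1989) on the high-fat diet in white fat. Its groups overlapped in both depots, and its depot difference was 2.68 ± 0.28 (adjusted p = 2.0e-08).

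The remaining genes named on this side by size were Apcdd1, an inhibitor of Wnt signalling (2.50 ± 0.27, adjusted p = 2.8e-08), Itih4, a secreted inhibitor heavy chain (2.36 ± 0.45, adjusted p = 1.3e-04), Popdc2, a cyclic AMP binding membrane protein (2.24 ± 0.18, adjusted p = 2.3e-10), and Sdk1, an adhesion molecule (1.99 ± 0.18, adjusted p = 1.4e-09). Lvrn, an aminopeptidase, reached 1.94 ± 0.27 (adjusted p = 2.3e-06), Megf6, with EGF-like repeats, 1.91 ± 0.32 (adjusted p = 3.0e-05), and Sncg, gamma-synuclein, 1.91 ± 0.34 (adjusted p = 5.4e-05). The rule for naming these 12 genes asked for the same sign at both ages and in both sexes. For each of them all 16 high-fat mice had a depot gap above the low-fat median. Itih4, with a low-fat brown fat level of 53.4 (19.1 to 497), had the widest error of the 12.

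On the negative side, Elovl3 led with a depot difference of -3.93 ± 0.54 (adjusted p = 1.9e-06). This elongase of very long fatty acids is a known product of active brown adipocytes (chr19:46131897-46135694), and its locus overlaps Pitx3 on the other strand. Its level in brown fat was 2832 (239.7 to 7481) on the low-fat and 314 (17.1 to 2846) on the high-fat diet, and in white fat 18.9 (4.12 to 267) on the low-fat and 39.6 (21.7 to 99.4) on the high-fat diet. The brown fat groups shared the region from 240 to 2846, and the white fat groups overlapped. Tfr2, transferrin receptor 2 (chr5:137569840-137587481), showed the reverse make-up. It was 56.5 (20.3 to 86.7) on the low-fat and 56.2 (20.5 to 137) on the high-fat diet in brown fat and 72.6 (22.9 to 308) on the low-fat and 840.2 (410.5 to 1554) on the high-fat diet in white fat. All high-fat white fat libraries lay above all low-fat ones, and the brown fat groups covered the same range. The depot difference of Tfr2 was -3.24 ± 0.29 (adjusted p = 1.8e-09), with a rise of 3.43 ± 0.18 (adjusted p = 6.4e-14) in white fat and 0.20 ± 0.21 (adjusted p = 0.46) in brown fat. Aldh1a7, an aldehyde dehydrogenase whose close copy Aldh1a1 makes its count uncertain, likewise rose in white fat only, by 2.83 ± 0.14, for a depot difference of -2.74 ± 0.18 (adjusted p = 1.0e-11). Ncan, the matrix proteoglycan neurocan, rose in white fat by 2.74 ± 0.18 and had a depot difference of -2.40 ± 0.24 (adjusted p = 9.9e-09).

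Several other negative genes fell in brown fat. Ramp1, a partner protein of calcitonin-family receptors, was 242 (41.9 to 462) on the low-fat and 26.3 (11.5 to 69.1) on the high-fat diet there and 79.7 (47.4 to 361) on the low-fat and 89.1 (49.97 to 151) on the high-fat diet in white fat. Its brown fat groups overlapped between 41.9 and 69.1, and its white fat groups overlapped throughout. The depot difference of Ramp1 was -3.10 ± 0.37 (adjusted p = 2.0e-07). Rims4, a presynaptic scaffold protein (-2.63 ± 0.23, adjusted p = 1.5e-09), Acpp, an acid phosphatase (-2.48 ± 0.26, adjusted p = 1.8e-08), and Fhdc1, a formin-family protein (-2.14 ± 0.29, adjusted p = 1.5e-06), also fell in brown fat, by 2.27, 1.69 and 1.78. Tmem56 had a depot difference of -2.51 ± 0.26 (adjusted p = 2.2e-08) and rose by 2.24 ± 0.23 in white fat. The last of the 12, Slc25a1, Insig1 and Me1, are on the lipid synthesis lists, Insig1 as a regulator, and are described with them. For all 12, every high-fat mouse lay below the low-fat median, and all 24 genes of both sides kept their direction and call in each of 13 other settings (312 of 312 values). The genes of both sides were picked by size from these same values. Their positions by mouse and their kept calls are therefore no separate support. The plot of levels by animal shows 6 of the genes described.

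**Figure D2:**
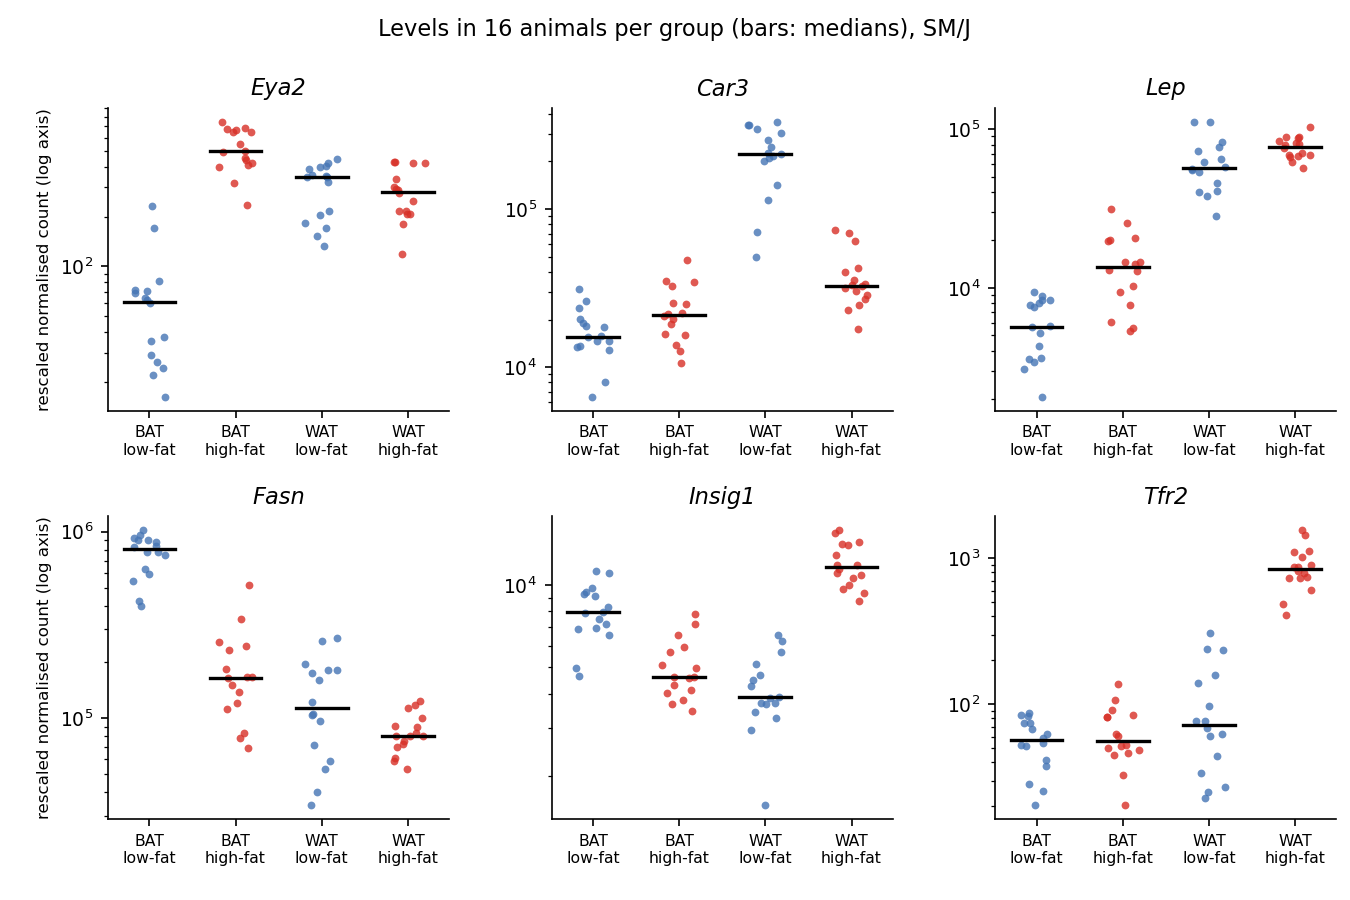
Rescaled normalised counts (y axis, log scale) of 6 genes in brown fat (BAT) and white fat (WAT) of 16 low-fat and 16 high-fat SM/J mice. Points are animals and bars are medians. The brown fat groups of Eya2 and the white fat groups of Tfr2 do not overlap, and Insig1 is lower in brown fat and higher in white fat on the high-fat diet.

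Fatty acid synthesis genes fell in brown fat and mostly did not in white fat. Of the 20 genes of the list, all tested, 17 had a negative and 0 a positive depot difference, with a median of -1.10 against 0.01 over all genes. In brown fat 18 of 20 fell and 0 rose (median -1.13), against 25.5% and 24.8% of all genes, and in white fat 6 rose and 4 fell (median 0.12), against 17.7% and 19.4% of all genes. Under total scaling and with values as deposited, 17 stayed negative and 1 was positive. Fasn, the fatty acid synthase itself (chr11:120805846-120824547), was 802818 (397984 to 1017720) on the low-fat and 164979 (69378 to 517983) on the high-fat diet in brown fat. In white fat it was 113479 (34105 to 267266) on the low-fat and 80287 (53399.8 to 124130) on the high-fat diet. A single high-fat brown fat library reached the low-fat range, and the white fat groups overlapped. Fasn had a depot difference of -1.74 ± 0.25 (adjusted p = 4.2e-06), with a change of -2.16 ± 0.21 in brown and -0.43 ± 0.21 (adjusted p = 0.11) in white fat.

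Several genes that supply Fasn with carbon and NADPH also had negative depot differences, some larger and some smaller than that of Fasn. Their sizes were not tested against each other. Slc25a1, which exports citrate from mitochondria, was 21006 (8422 to 34329) on the low-fat and 4907 (2979.6 to 12374) on the high-fat diet in brown fat and 5661 (2129 to 11314) on the low-fat and 7319 (5970.2 to 11425) on the high-fat diet in white fat. The groups overlapped in each depot taken alone, but the within-mouse gaps of the 2 diets did not overlap. For Slc25a1 the depot difference was -2.36 ± 0.21 (adjusted p = 1.0e-09). Me1, the malic enzyme that yields NADPH, reached -2.23 ± 0.18 (adjusted p = 4.2e-10), and Acly, which splits citrate to acetyl-CoA, -1.92 ± 0.23 (adjusted p = 2.8e-07). Pgd, of the pentose phosphate pathway, was at -1.79 ± 0.18 (adjusted p = 1.1e-08), and Acss2, which activates acetate, at -1.62 ± 0.13 (adjusted p = 2.2e-10). The gaps of Me1 and Acss2 did not overlap between diets either. Acaca, the acetyl-CoA carboxylase, fell in both depots, by 1.73 in brown and by 0.57 in white fat, for a depot difference of -1.17 ± 0.19 (adjusted p = 2.6e-05). Scd2, a fatty acid desaturase, fell by 0.45 in brown fat and rose by 1.09 in white fat (depot difference -1.54 ± 0.17, adjusted p = 4.2e-08). Thrsp, a lipogenic regulator, fell in both depots, by 1.62 and 1.34, and its depot difference did not pass (-0.28 ± 0.19, adjusted p = 0.26). The desaturases Fads1 and Fads2, at 0.17 and -0.06, did not pass either.

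Cholesterol synthesis genes fell in brown fat and rose in white fat. Of 20 genes tested, 18 had a negative and 0 a positive depot difference (median -1.07), 15 fell in brown fat (median -0.51), and 15 rose and 1 fell in white fat (median 0.59). Under total scaling 17 were negative and 0 positive, and as deposited 16 and 1. Insig1, the sterol-sensing anchor of SREBP (chr5:28071363-28078662), was 7936 (4649.7 to 11243) on the low-fat and 4593 (3438 to 7802) on the high-fat diet in brown fat. In white fat it was 3873 (1556 to 6539) on the low-fat and 11674 (8738 to 15891) on the high-fat diet. Every high-fat white fat library was above every low-fat one, and the brown fat groups overlapped. The depot difference of Insig1 was -2.25 ± 0.15 (adjusted p = 1.8e-11), with -0.68 ± 0.10 in brown and 1.57 ± 0.11 in white fat. Lss, which closes the sterol ring, was 1385 (822 to 1749) on the low-fat and 756 (626 to 1074) on the high-fat diet in brown fat and 1334 (540.4 to 1873) on the low-fat and 2502 (1962 to 4054) on the high-fat diet in white fat. The white fat groups did not overlap and the brown fat groups overlapped between 822 and 1074. Its depot difference of -1.79 ± 0.10 (adjusted p = 7.8e-13) had an error of 0.10, and it passed under all 5 scalings.

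Most of the other members of the list had negative depot differences. Dhcr7, the last step before cholesterol, had a depot difference of -1.97 ± 0.18 (adjusted p = 2.2e-09). Pmvk and Fdps, of the mevalonate and isoprenoid steps, reached -1.54 ± 0.12 (adjusted p = 2.3e-10) and -1.49 ± 0.14 (adjusted p = 2.4e-09). Srebf2, which encodes the sterol-regulated transcription factor SREBP2, was at -0.02 ± 0.07 (adjusted p = 0.86) and did not pass. The gaps of Insig1, Dhcr7, Lss, Pmvk, Fdps, Cyp51 and Sc5d did not overlap between the diets. Both lipid synthesis lists kept their direction without the 2 low-fat mice whose white fat stood apart (17 and 18 negative). Leaving out the 12 mice with muscle markers in brown fat empties the low-fat 20-week female group, so that fit on 20 mice has additive terms for age and sex. It called 8.81% of all genes positive and 9.85% negative, and 13 and 16 of these lists negative.

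Because sterol genes are controlled through promoter elements read by SREBP, the windows from 250 bases before to 50 after each start site in RefSeq (GRCm38.p6) were searched for TCACNCCAC on both strands. Of the 20 cholesterol synthesis genes 14 had a window, and 1 of them (7.14%), Hmgcs1, held the motif. None of the 17 fatty acid synthesis genes with a window held it, and 1.24% of all 32851 windows did. Hmgcs1, which makes the precursor of mevalonate, was 8996 (5682 to 11554) on the low-fat and 8702 (5045 to 12229) on the high-fat diet in brown fat. In white fat it was 9049 (4347 to 14071) on the low-fat and 15411 (11196 to 22909) on the high-fat diet. Brown fat levels covered the same range on both diets, and the white fat groups overlapped between 11196 and 14071. This gave Hmgcs1 a depot difference of -0.79 ± 0.11 (adjusted p = 3.7e-06). The Hmgcs1 window is shown as the only one of the 2 lists with these letters (chr13:119690101-119690400, plus strand), with the motif in capitals, 137 bases before the start. A match is a description of the letters only.
Hmgcs1: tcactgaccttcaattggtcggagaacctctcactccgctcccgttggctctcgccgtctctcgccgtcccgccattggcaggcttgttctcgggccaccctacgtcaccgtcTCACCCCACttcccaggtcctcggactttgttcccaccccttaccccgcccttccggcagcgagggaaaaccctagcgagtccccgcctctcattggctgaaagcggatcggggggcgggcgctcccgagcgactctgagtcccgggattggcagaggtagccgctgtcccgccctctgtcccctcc

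White adipocyte genes mostly had positive depot differences. Of 23 genes on the list 18 were in all 4 tables, and 17 of these had a positive and 1 a negative depot difference (median 1.08). In brown fat 12 rose and 1 fell (median 0.44), and in white fat 1 rose and 11 fell (median -0.49). The count of positive genes was 17 under total scaling and as deposited too. Adipoq, the hormone adiponectin, was 15667 (9619 to 19069) on the low-fat and 15914 (12568 to 17686) on the high-fat diet in brown fat and 51482 (18108 to 77670.3) on the low-fat and 23342 (17137 to 32568) on the high-fat diet in white fat. Brown fat levels overlapped throughout, and every high-fat white fat library lay under the low-fat median. Adipoq had a depot difference of 1.13 ± 0.16 (adjusted p = 3.9e-06) and changed by -1.05 ± 0.17 (adjusted p = 2.2e-05) in white fat. Cfd, adipsin, fell by 1.74 ± 0.27 in white fat and changed by -0.03 ± 0.15 (adjusted p = 0.86) in brown fat, for a depot difference of 1.71 ± 0.27 (adjusted p = 1.2e-05).

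Lep, the hormone leptin, differed from these in rising in both depots. Its level was 5672 (2053 to 9439.9) on the low-fat and 13561 (5307 to 31469.9) on the high-fat diet in brown fat and 57217 (28378 to 111374) on the low-fat and 77639 (56561 to 102721) on the high-fat diet in white fat. The groups overlapped in both depots, and 13 of 16 high-fat mice had a gap above the low-fat median. The rise was 1.22 ± 0.17 in brown and 0.38 ± 0.13 in white fat, and the depot difference was 0.84 ± 0.15 (adjusted p = 8.4e-05). Peg3 and Mest, imprinted genes active in growing adipose tissue, rose in brown fat by 1.42 and 1.23 and had depot differences of 1.24 ± 0.15 (adjusted p = 1.5e-07) and 1.39 ± 0.16 (adjusted p = 1.7e-07). Mest overlaps Copg2 on the other strand. Trpv1, a cation channel of sensory neurons, was the single negative member (-0.51 ± 0.16, adjusted p = 0.013). Without the 12 mice with muscle markers in brown fat, 13 of the 18 genes were positive and 0 negative.

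More brown and thermogenic adipocyte genes had negative than positive depot differences. Of 24 on the list 20 were tested, of which 9 were negative and 2 positive (median -0.37), against 20.2% and 20.1% of all genes. Whether called or not, 3 of the 20 estimates were above 0. In brown fat 12 fell and 1 rose (median -0.26), and in white fat 6 rose and 4 fell. The counts in brown fat alone rest on the joint rescaling. Its log2 factors were -0.35 to -0.30 for low-fat and -0.09 to -0.05 for high-fat brown fat, which lowered brown fat diet changes relative to the deposited values. As deposited, 6 depot differences were negative and 2 positive, and without the 12 muscle-marked mice 5 and 2, with a median of -0.14. Ucp1 did not pass (-0.89 ± 0.48, adjusted p = 0.15), with -0.17 ± 0.10 (adjusted p = 0.17) in brown fat and a wide spread in white fat, where low-fat levels ran from 6.43 to 6025. Cidea, a lipid droplet protein typical of brown fat, did not pass either (-0.11 ± 0.33, adjusted p = 0.81). Otop1, a proton channel, was 10679 (7409 to 13263) on the low-fat and 6383 (4782 to 7999) on the high-fat diet in brown fat and 185 (62.3 to 1214) on the low-fat and 533 (376 to 909.8) on the high-fat diet in white fat. The brown fat groups overlapped only between 7409 and 7999, and the white fat groups overlapped too. The fitted depot difference of Otop1 was -2.13 ± 0.21 (adjusted p = 8.5e-09). Slc36a2, an amino acid transporter of the brown adipocyte surface, changed by 0.06 ± 0.04 (adjusted p = 0.23) in brown fat and rose by 1.33 ± 0.11 in white fat, for a depot difference of -1.28 ± 0.12 (adjusted p = 2.6e-09). Esrrg, an orphan nuclear receptor of oxidative genes, was at -0.97 ± 0.22 (adjusted p = 0.001). The positive members were Ppargc1b, a coactivator of mitochondrial genes (0.51 ± 0.15, adjusted p = 0.0069), and Ebf2, a determinant of brown fat fate (0.50 ± 0.15, adjusted p = 0.008).

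Fatty acid oxidation genes showed smaller differences. Of 23 on the list 22 were tested, of which 11 were negative and 0 positive (median -0.22), against 20.2% and 20.1% of all genes. They were led by the peroxisomal enzyme Ehhadh (-1.0 ± 0.18, adjusted p = 6.1e-05) and by Hadha (-0.51 ± 0.10, adjusted p = 1.7e-04), which overlaps Garem2. Scaling changed this balance, with 6 negative and 4 positive under total scaling and 4 and 4 as deposited. Without the 12 mice with muscle markers in brown fat, 3 were negative and 1 positive, against 9.85% and 8.81% of all genes in that fit. Of 35 respiratory chain genes, 22 fell and 1 rose in brown fat and 17 fell in white fat, but as deposited 2 fell and 6 rose in brown fat, and 8 fell in white fat. A single gene, Atp5c1, passed for the depot difference (0.27 ± 0.09, adjusted p = 0.014). Under total scaling and as deposited 17 of the 35 were positive, near the 44.5% and 53% of all genes that were positive there. Within the citric acid cycle, Pdhx and Dlat of the pyruvate dehydrogenase complex were negative (-0.53 ± 0.07, adjusted p = 2.3e-06, and -0.63 ± 0.09, adjusted p = 2.8e-06), and Idh2, the mitochondrial isocitrate dehydrogenase, was positive (0.83 ± 0.12, adjusted p = 2.4e-06).

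Glycolysis genes fell in brown fat. Of 19 on the list 18 were tested, of which 12 had a negative and 3 a positive depot difference (median -0.48), 15 fell and 1 rose in brown fat (median -0.70), and 4 fell and 1 rose in white fat (median -0.12). Pfkl, the liver-type phosphofructokinase, was 39869 (27486 to 59373) on the low-fat and 23552 (18942 to 34297) on the high-fat diet in brown fat and 3579 (1575 to 6835) on the low-fat and 4403 (3425 to 7016) on the high-fat diet in white fat. The groups overlapped in each depot, but the within-mouse gaps did not overlap between diets. The depot difference of Pfkl was -1.13 ± 0.10 (adjusted p = 1.4e-09). The enzymes Gpi1, Eno1 and Gapdh followed with -0.95, -0.95 and -0.82, each with an adjusted p of at most 8.1e-06. Slc2a4, the insulin-sensitive transporter GLUT4, fell in both depots, by 0.74 in brown and by 0.96 in white fat, and its depot difference did not pass (0.22 ± 0.14, adjusted p = 0.21). The positive members were Ldhb, Slc2a1 and Hk1, at 0.58, 0.46 and 0.27. Total scaling gave 12 negative and 4 positive, and values as deposited gave 9 and 4. Without the 12 muscle-marked mice 10 were negative and 1 positive.

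Interferon response genes rose in brown fat. Of 24 on the list 23 were tested, of which 18 had a positive and 1 a negative depot difference (median 0.53). In brown fat 17 rose and 0 fell (median 0.47), and in white fat 3 rose and 3 fell (median -0.02). Under total scaling and as deposited, 21 were positive and 0 negative. Genes of this response carry a promoter element of repeated GAAA, and GAAA followed by any 2 bases and a further GAAA, searched on both strands, was present in the windows of 10 of the 20 list members with a window (50%) against 3.44% of all windows and 3.76% of the 9418 tested genes with one. Overlapping matches were each counted as positions within one window. The 4 windows below are shown because these genes are among those with the largest depot differences of the list that hold the motif. They come from RefSeq (GRCm38.p6), run 5′ to 3′ on the strand of the gene, and have the motif of either strand in capitals.
Ifit1: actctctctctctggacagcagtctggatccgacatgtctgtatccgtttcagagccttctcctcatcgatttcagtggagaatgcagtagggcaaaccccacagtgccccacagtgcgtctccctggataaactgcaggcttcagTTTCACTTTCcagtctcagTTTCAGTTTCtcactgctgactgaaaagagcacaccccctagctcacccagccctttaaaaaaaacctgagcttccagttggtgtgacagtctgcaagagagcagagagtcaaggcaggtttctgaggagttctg
Isg15: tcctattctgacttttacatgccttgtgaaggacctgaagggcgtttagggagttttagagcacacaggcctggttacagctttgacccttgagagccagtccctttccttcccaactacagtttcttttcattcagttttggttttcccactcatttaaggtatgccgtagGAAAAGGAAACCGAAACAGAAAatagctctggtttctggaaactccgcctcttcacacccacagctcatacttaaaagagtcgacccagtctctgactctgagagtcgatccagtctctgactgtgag
Gbp2: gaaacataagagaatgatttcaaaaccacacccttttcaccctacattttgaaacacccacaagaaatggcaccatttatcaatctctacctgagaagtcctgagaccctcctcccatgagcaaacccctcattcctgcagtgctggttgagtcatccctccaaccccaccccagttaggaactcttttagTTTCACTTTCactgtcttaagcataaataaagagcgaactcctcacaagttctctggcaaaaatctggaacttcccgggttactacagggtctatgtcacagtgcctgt
Ifit3: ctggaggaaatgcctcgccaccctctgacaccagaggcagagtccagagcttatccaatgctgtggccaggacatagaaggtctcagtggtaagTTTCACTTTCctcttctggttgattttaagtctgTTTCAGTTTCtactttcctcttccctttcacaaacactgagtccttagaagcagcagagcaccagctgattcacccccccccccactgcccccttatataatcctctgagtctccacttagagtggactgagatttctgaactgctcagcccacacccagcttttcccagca

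These windows lie at chr19:34640639-34640938 (plus strand) for Ifit1, chr4:156200769-156201068 (minus strand) for Isg15, chr3:142620413-142620712 (plus strand) for Gbp2 and chr19:34583279-34583578 (plus strand) for Ifit3. The motif starts 104 and 85 bases before the start of Ifit1, 156 and 122 before that of Ifit3 and 59 before that of Gbp2. In Isg15 3 overlapping matches, 78, 72 and 66 bases before the start, form 1 run.

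These genes were at low to moderate levels in both depots. Ifit1, which binds foreign RNA ends, was 72.2 (36.6 to 112) on the low-fat and 97.2 (73.0 to 356) on the high-fat diet in brown fat. In white fat it was 142 (75.1 to 314) on the low-fat and 132 (59.9 to 177) on the high-fat diet. The groups overlapped in both depots, and 15 of 16 high-fat mice had a gap above the low-fat median. Its depot difference was 0.94 ± 0.20 (adjusted p = 5.1e-04), with a rise of 0.67 ± 0.17 in brown and -0.28 ± 0.18 (adjusted p = 0.24) in white fat. Isg15, a ubiquitin-like modifier, was at 0.92 ± 0.24 (adjusted p = 0.0027), Gbp2, a guanylate-binding GTPase, at 0.73 ± 0.14 (adjusted p = 2.0e-04), and Ifit3 at 0.68 ± 0.14 (adjusted p = 4.4e-04). Usp18, which removes ISG15, reached 0.73 ± 0.12 (adjusted p = 1.4e-05), and Ifih1, the RNA sensor MDA5, 0.58 ± 0.07 (adjusted p = 9.5e-08). Rsad2, the antiviral enzyme viperin, and Oas1a rose in brown fat by 1.07 and 0.47, but their depot differences did not pass (0.33 ± 0.17, adjusted p = 0.12, and 0.05 ± 0.15, adjusted p = 0.81). Without the 2 low-fat mice whose white fat stood apart 19 members were positive and 1 negative, and without the 12 muscle-marked mice 11 and 0. The plot of list medians sets these groups side by side.

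**Figure D3:**
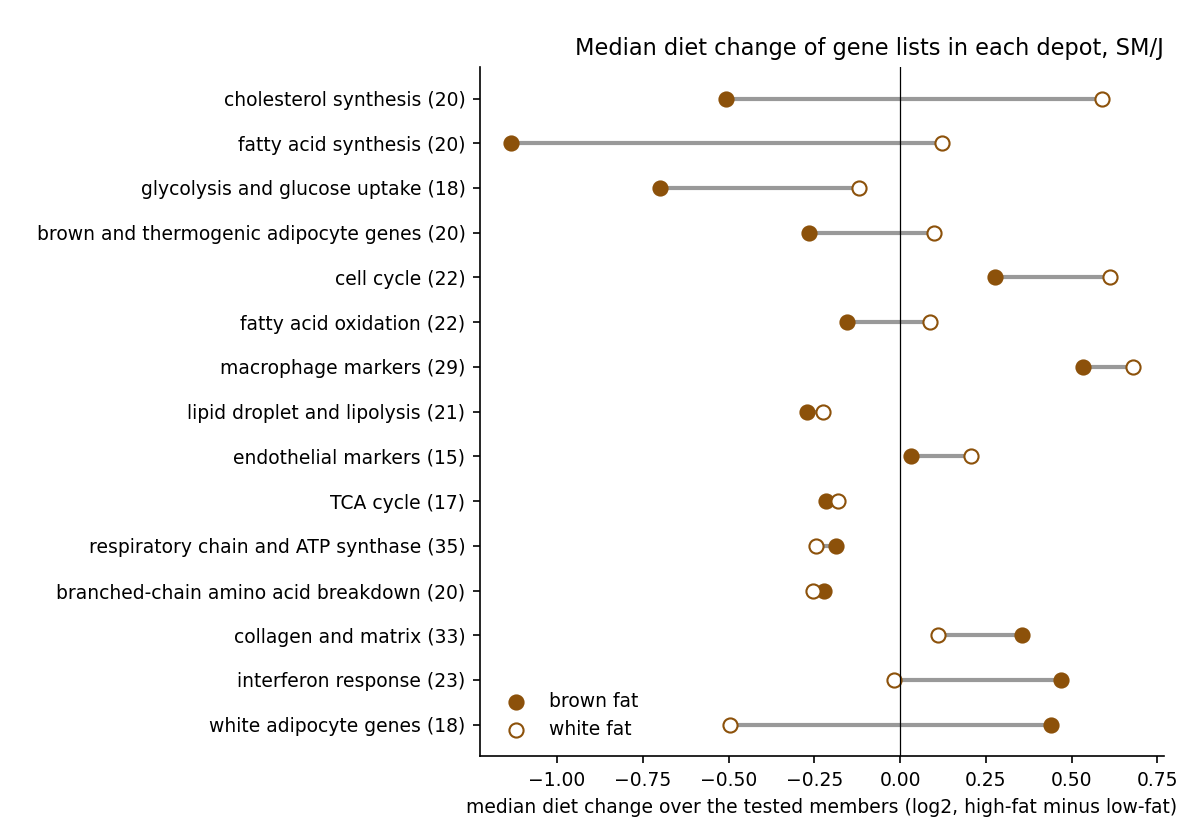
Median diet change (x axis, log2 high-fat minus low-fat) over the tested members of 15 gene lists in brown fat (filled) and white fat (open), with the number of members in brackets. The length of each bar is the distance between the depots. Lipid synthesis lists have lower medians in brown than in white fat, and white adipocyte and interferon lists have higher ones.

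Lipid droplet and lipolysis genes had depot differences of both signs. Of 21 tested, 9 were negative and 4 positive (median -0.09), against 20.2% and 20.1% of all genes. The counts were 5 and 5 under total scaling, against 8.28% and 44.5% of all genes there. Without the 12 muscle-marked mice they were 4 and 2, against 9.85% and 8.81%. Agpat2, an acyltransferase of triglyceride assembly that overlaps Egfl7, was 34216 (11885 to 43682) on the low-fat and 15815 (12740.3 to 22556) on the high-fat diet in brown fat and 7183 (2245 to 14381) on the low-fat and 9385 (7634 to 13122) on the high-fat diet in white fat. The high-fat brown fat values lay within the low-fat range in its lower part, whereas the within-mouse gaps did not overlap between diets. This gave Agpat2 a depot difference of -1.66 ± 0.13 (adjusted p = 2.1e-10). The droplet coat proteins moved in different ways: Plin5 and Plin2 were at -1.40 ± 0.14 (adjusted p = 7.3e-09) and -1.29 ± 0.16 (adjusted p = 5.9e-07), and Plin4, typical of white adipocytes, at 0.74 ± 0.14 (adjusted p = 8.3e-05). The lipases Pnpla2 and Lipe fell in both depots and did not pass (0.19 ± 0.14, adjusted p = 0.29, and 0.04 ± 0.12, adjusted p = 0.82). Acsl5, which activates fatty acids, had a depot difference of -2.01 ± 0.20 (adjusted p = 1.1e-08), with a change of -1.84 ± 0.19 in brown fat.

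Signalling and amino acid genes gave a few further differences. Irs2, an insulin receptor substrate, was 362 (163 to 847) on the low-fat and 662 (334 to 1176) on the high-fat diet in brown fat and 1069 (587 to 1593) on the low-fat and 584 (453 to 895) on the high-fat diet in white fat. The groups overlapped in both depots, and all 16 high-fat mice had a gap above the low-fat median. The fitted depot difference of Irs2 was 1.44 ± 0.23 (adjusted p = 1.5e-05). Foxo1, the insulin-restrained transcription factor, was at 0.71 ± 0.10 (adjusted p = 1.4e-06) and Grb10, an adaptor that dampens insulin signalling, at 0.56 ± 0.07 (adjusted p = 1.9e-07). The insulin signalling list held 6 positive and 5 negative genes of 20, against 20.1% and 20.2% of all genes. Its counts were 10 and 2 under total scaling and 3 and 1 without the 12 muscle-marked mice. In beta-adrenergic signalling, 6 of 19 were negative and 2 positive, against 20.2% and 20.1% of all genes, including the adenylate cyclase Adcy3 (-0.61 ± 0.08, adjusted p = 8.4e-07) and the phosphodiesterase Pde4d (-0.60 ± 0.08, adjusted p = 1.6e-06). The beta-3 adrenergic receptor Adrb3 was positive (1.12 ± 0.22, adjusted p = 1.7e-04), and the counts turned to 6 negative and 8 positive under total scaling and to 3 and 4 without the 12 muscle-marked mice. Asns, the asparagine synthetase of the amino acid stress response, rose in brown fat by 0.83 ± 0.07 and was at 0.93 ± 0.10 (adjusted p = 5.5e-08). Rarres2, the secreted protein chemerin, rose in brown fat by 1.87 ± 0.14 and was at 1.58 ± 0.19 (adjusted p = 2.6e-07).

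Most matrix genes rose in brown fat, and fewer passed in white fat. Of 35 on the list 33 were tested. In brown fat 25 rose and 0 fell, against 24.8% and 25.5% of all genes. In white fat 11 rose and 5 fell, against 17.7% and 19.4%. The depot difference was positive for 14 and negative for 4 (median 0.23), against 20.1% and 20.2% of all genes. Thbs1, an adhesive glycoprotein, and Col18a1, the source of endostatin, led the positive members (1.12 ± 0.37, adjusted p = 0.015, and 0.84 ± 0.13, adjusted p = 8.1e-06). Postn and Lum, both matrix proteins of remodelling connective tissue, were negative (-0.75 ± 0.10, adjusted p = 2.0e-06, and -0.74 ± 0.12, adjusted p = 3.0e-05). Col1a1 was at 0.01 ± 0.22 (adjusted p = 0.99). Without the 12 muscle-marked mice, 5 were positive and 4 negative, against 8.81% and 9.85% of all genes in that fit.

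Most macrophage markers rose in each depot, 21 of the 29 tested (32 listed) in brown and 20 in white fat. For the depot difference 7 were negative and 3 positive (median -0.14), against 20.2% and 20.1% of all genes. Total scaling gave 3 negative and 5 positive, against 8.28% and 44.5% of all genes there. The balance of directions thus changed with the scaling, as it did over all genes. Without the 12 muscle-marked mice 1 was negative and 1 positive. Adgre1, the macrophage surface protein F4/80, was 506 (213 to 746) on the low-fat and 673 (519.7 to 865) on the high-fat diet in brown fat and 2301 (937 to 11343) on the low-fat and 6513 (4172 to 8314) on the high-fat diet in white fat. The groups overlapped in both depots, in white fat through low-fat males. The depot difference of Adgre1 was -0.68 ± 0.15 (adjusted p = 8.8e-04), and without the 12 muscle-marked mice it was -0.60 with an adjusted p of 0.12. Lyve1, found on resident macrophages and lymphatic vessels, was positive (1.04 ± 0.13, adjusted p = 2.4e-07), and Npc2 and Ctsb, lysosomal proteins, were negative (-1.09 ± 0.10, adjusted p = 2.4e-09, and -1.10 ± 0.11, adjusted p = 9.4e-09). Cell cycle genes rose in white fat (18 of 22) and in brown fat (13), and 8 were negative and 1 positive for the depot difference (median -0.28). Under total scaling the cell cycle counts were 4 and 1, and without the 12 muscle-marked mice 4 and 0. Mki67, a marker of dividing cells, did not pass (-0.22 ± 0.16, adjusted p = 0.31).

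Other lists had fewer members called or no common direction. Their counts are to be read against the 20.1% positive and 20.2% negative of all genes. Clock genes held 5 positive and 1 negative of 17, with Per2 at 0.57 ± 0.07 (adjusted p = 4.5e-07) and Per1 at 0.56 ± 0.11 (adjusted p = 2.3e-04), both of them repressors in the circadian loop. Of 20 immediate early genes 3 were positive, Fosl2, Myc and Ier3, at 0.62, 0.77 and 0.53. Among 17 adipocyte transcription factors 6 were positive and 2 negative, with Klf15, a glucocorticoid-responsive factor, at 0.73 ± 0.16 (adjusted p = 5.0e-04) and Mlxipl, the carbohydrate-sensing factor ChREBP, at -0.41 ± 0.13 (adjusted p = 0.013). Lysosomal and lipid-handling genes of macrophages were negative for 9 of 23 and positive for 3, and under total scaling for 7 and 5. Of 15 endothelial markers 4 were negative and 0 positive, among them Plvap of fenestrated vessels (-0.49 ± 0.12, adjusted p = 0.0017), and under total scaling 1 was negative and 3 positive. Without the 12 muscle-marked mice the positive and negative counts were 4 and 0 for clock genes, 0 and 0 for immediate early genes, 6 and 0 for adipocyte transcription factors, 3 and 5 for the lysosomal list and 0 and 1 for endothelial markers. Markers of T and NK cells, of the epididymis and of mammary epithelium had no member in all 4 tables, and 7 of 22 skeletal muscle markers and 1 of 12 mesothelial markers were tested.

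Age did not alter the depot difference of any single gene beyond the threshold. Of 12391 genes, 0 (0%) passed for 30 minus 20 weeks with limma, and 1363 had an unadjusted p under 0.05. Brown and thermogenic genes had a median depot difference of -0.68 at 20 weeks and -0.05 at 30 weeks. The medians at these ages were -0.43 and -0.0032 for fatty acid oxidation genes and 0.46 and -0.04 for collagen and matrix genes. For inflammatory cytokines and chemokines they were 0.11 and -0.58. None of their members passed for age. Ucp1 was at -2.19 at 20 weeks and 0.41 at 30 weeks. Fatty acid synthesis and interferon medians were close at both ages, at -1.11 and -1.08 and at 0.50 and 0.51. With the animal as a random effect 8 genes passed.

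Sex altered the depot difference of 443 genes (3.58%), 287 (2.32%) more positive in males and 156 (1.26%) more positive in females, and without the pairing by mouse 118 genes passed. Macrophage markers were among them: 8 of 29 were more positive in males and 0 in females, and the female value was below the male one in 27 of 29, with medians of -0.56 in females and 0.24 in males. For Adgre1, the within-mouse brown minus white gap in females was -2.09 (-2.54 to -1.33) on the low-fat and -3.24 (-3.54 to -2.99) on the high-fat diet. In males it was -3.04 (-4.05 to -2.22) and -3.13 (-3.71 to -2.31). The female groups did not overlap, and the male groups overlapped over most of their range. The depot difference was -1.30 in females and -0.07 in males, a difference of 1.23 ± 0.31 (adjusted p = 0.024). In white fat alone the diet difference of Adgre1 was 2.25 in females and 0.20 in males. Msr1, a scavenger receptor, and Cd68, a lysosomal marker, differed by 1.87 ± 0.45 (adjusted p = 0.018) and 1.28 ± 0.27 (adjusted p = 0.0089). Without the 2 low-fat mice whose white fat stood apart, of which the male had the high macrophage sum, 5 of the 29 passed, all more positive in males. The sex difference of Adgre1 was then 0.93 ± 0.25 (adjusted p = 0.034), and 539 genes passed in all.

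Among single genes, the largest positive sex differences were in Ppp1r3a, a glycogen-targeting phosphatase subunit found in muscle (4.48 ± 1.23, adjusted p = 0.038), Padi2, a peptidylarginine deiminase (2.76 ± 0.55, adjusted p = 0.0058), Dhrs9, a retinol dehydrogenase (2.24 ± 0.47, adjusted p = 0.0075), and Il1rn, the interleukin-1 receptor antagonist (2.01 ± 0.58, adjusted p = 0.048). The calls of Ppp1r3a and Il1rn were lost in 15 and 21 of the 32 fits that each left out 1 mouse, with adjusted p up to 0.066 and 0.091. Ppp1r3a moved beside the muscle markers of brown fat, which were above 20000 in all 4 low-fat 20-week females, and the part of these markers in its value was not tested. The most negative were Reln, a secreted matrix protein (-2.34 ± 0.52, adjusted p = 0.01), Ntrk3, a neurotrophin receptor (-2.02 ± 0.36, adjusted p = 0.0036), Hsd11b1, which activates glucocorticoids (-2.01 ± 0.45, adjusted p = 0.011), and Angptl1, a secreted angiopoietin-like protein (-1.88 ± 0.35, adjusted p = 0.0036). Reln is also on the list of lymphatic endothelial markers, of which 4 were tested and 2 passed for sex. The median depot difference of that list was 1.51 in females and -0.31 in males. The part of these markers in the value of Reln was not tested. For Hsd11b1 the gap in males was 2.30 (1.65 to 3.41) on the low-fat and 0.44 (-0.74 to 1.64) on the high-fat diet. In females it was 0.97 (0.06 to 2.12) and 1.35 (0.19 to 1.55). The male groups did not overlap, and the female groups covered the same range. Hsd11b1 overlaps Lamb3 and Angptl1 overlaps Ralgps2, so part of their reads may belong to those genes. The white adipocyte list had a median of 1.46 in females and 0.65 in males, with 0 members lower in females, and 1 of its 18 genes, Mest, passed for sex (-1.49 ± 0.33, adjusted p = 0.01).

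**Figure D4:**
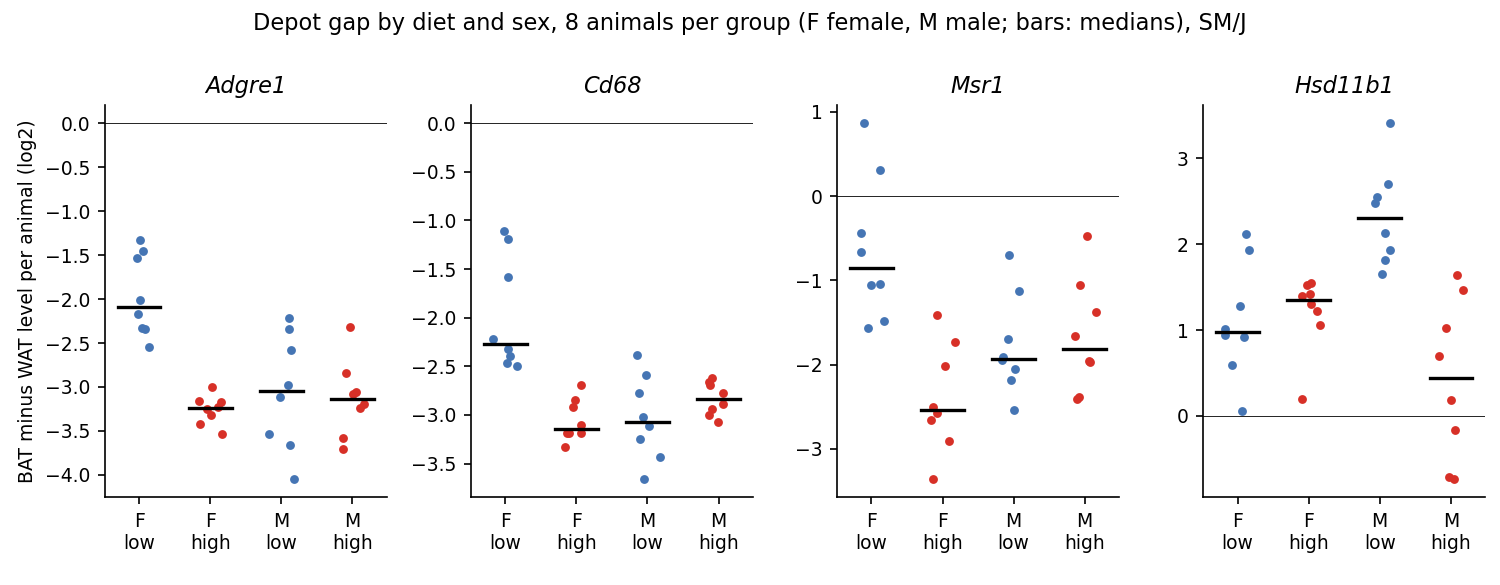
Brown minus white fat level within each mouse (y axis, log2) for 4 genes in 8 low-fat (low) and 8 high-fat (high) mice of each sex, F female and M male. Points are animals and bars are medians. The gaps of Adgre1 and Cd68 are lower on the high-fat diet in females, and those of Hsd11b1 are lower on the high-fat diet in males.

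SM/J mice were compared with LG/J mice over the 11967 genes in all 8 tables. In LG/J alone the depot difference passed for 697 of 12292 genes (5.67%), 384 (3.12%) positive and 313 (2.55%) negative. The depot difference itself differed between strains for 2266 genes (18.9%), 975 (8.15%) more positive and 1291 (10.8%) more negative in SM/J. Scaling moved this balance: total scaling gave 3376 and 456 with a median strain difference of 0.20 over all genes, and values as deposited gave 5265 and 320 with a median of 0.26. The statements that follow kept their direction under these scalings unless said otherwise.

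Interferon genes had opposite medians in the strains. Of 20 members in both strains, 18 were more positive in SM/J and 0 more negative, with medians of 0.53 in SM/J and -0.50 in LG/J, where 4 were negative. Ifit1 was at 0.94 in SM/J and -0.71 ± 0.21 in LG/J, a strain difference of 1.64 ± 0.30 (adjusted p = 9.9e-05). White adipocyte genes were more positive in SM/J for 9 of 18 and more negative for 0, with a LG/J median of 0.18. Glycolysis genes were more negative in SM/J for 12 of 18 and more positive for 0, with a LG/J median of 0.04, and as deposited the counts were 7 and 1.

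Both lipid synthesis lists had negative medians in both strains, and most members did not pass in LG/J. Fatty acid synthesis was more negative in SM/J for 11 of 20 genes and more positive for 2, and its LG/J median was -0.54 with 6 negative genes. Cholesterol synthesis was more negative in SM/J for 8 of 20 and more positive for 0, with a LG/J median of -0.51 and 6 negative genes. Insig1 was at -2.25 in SM/J and -1.40 ± 0.26 in LG/J, a strain difference of -0.87 ± 0.31 (adjusted p = 0.042). Slc25a1 differed by -1.45 ± 0.33 (adjusted p = 0.0014), and Fasn did not pass (-1.22 ± 0.46, adjusted p = 0.055). Fatty acid oxidation genes were more negative in SM/J for 12 of 22 and more positive for 0, with a LG/J median of 0.13, but as deposited 3 were more negative and 1 more positive.

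The single genes with the largest strain differences were mostly those that led the SM/J comparison. Itih4 was at -0.64 ± 0.50 in LG/J, Apcdd1 at -0.25 ± 0.33, Eya2 at 0.70 ± 0.38 and Slc2a3 at 0.32 ± 0.28, none of which passed there. Their strain differences were 2.98 ± 0.70 (adjusted p = 0.0019), 2.74 ± 0.44 (adjusted p = 1.6e-05), 2.58 ± 0.46 (adjusted p = 8.9e-05) and 2.50 ± 0.37 (adjusted p = 3.6e-06). On the negative side Tmem56 (-2.76 ± 0.37, adjusted p = 7.1e-07), Ncan (-2.67 ± 0.59, adjusted p = 0.0012) and Rims4 (-1.84 ± 0.37, adjusted p = 3.6e-04) led with Scn4b, a sodium channel subunit (-1.84 ± 0.57, adjusted p = 0.018), which was at -0.72 ± 0.48 (adjusted p = 0.25) in SM/J and 1.11 ± 0.26 in LG/J. Ucp1 did not differ between strains beyond the threshold (-0.38 ± 0.80, adjusted p = 0.78). The plot of list medians in both strains shows the interferon list with opposite signs.

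**Figure D5:**
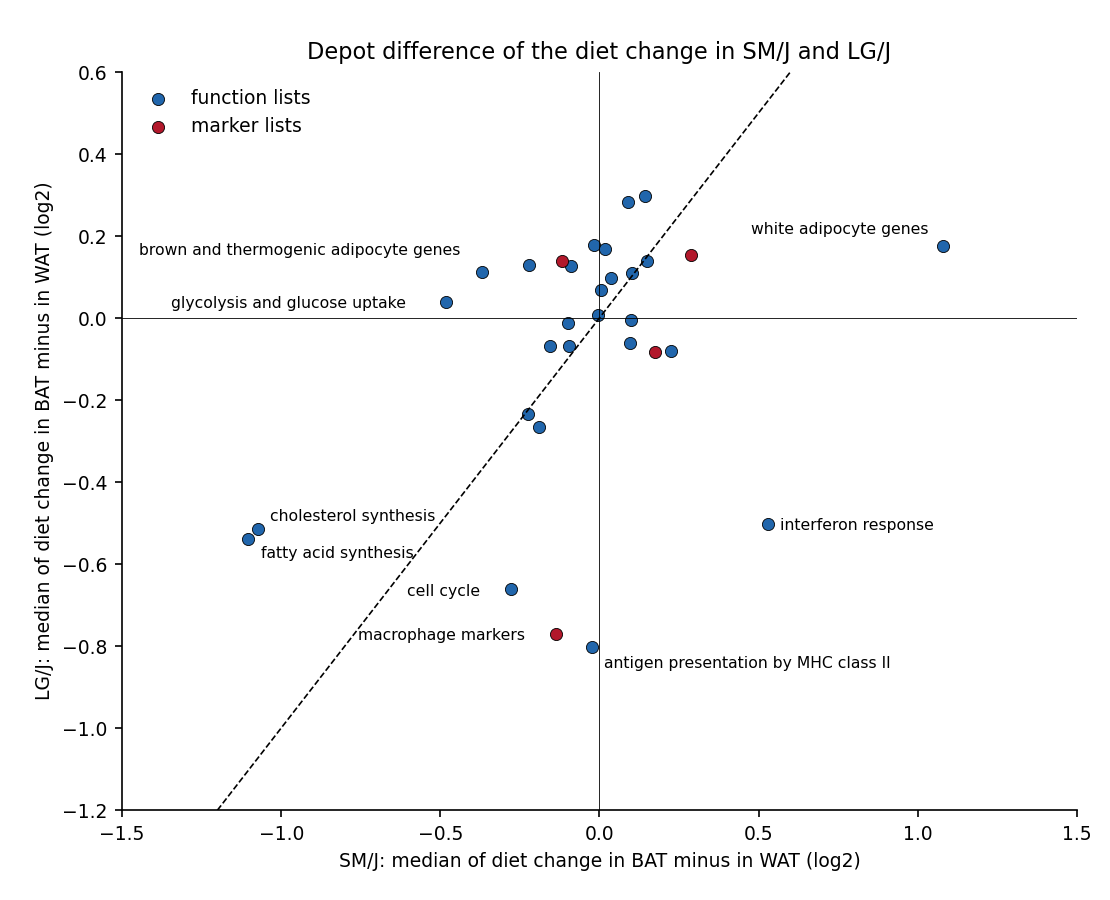
Median depot difference (diet change in brown fat minus in white fat, log2) of each gene list with at least 8 genes measured, in SM/J (x axis) and LG/J (y axis). Blue points are function lists, red points are cell marker lists, and the dashed line marks equal values. The interferon list lies at 0.53 in SM/J and -0.50 in LG/J, and both lipid synthesis lists are negative in both strains.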

How the data were processed

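Expression in both fat depots was read from tables of normalised counts (signal values) that the authors deposited, 1 table for each strain, diet and depot, and the values are not whole reads. The submitters' processing notes name STAR 2.6.0c, edgeR and the mm10 build, and per the labels' protocols the libraries were ribosomal-depleted total RNA from samples with a RIN above 7.5. How the authors normalised within a table, and the strand of counting, are not given in the sources used here. The 4 SM/J tables were joined on 12391 shared genes and rescaled together by median ratios. Between-table log2 factors ran from -0.35 to 0.23. Read depth is unknown, since the values carry no read counts.

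For each mouse the brown minus white difference of log2(level + 1) was taken, and limma 3.58.1 (R 4.3.3) with a mean-variance trend was fitted to 8 diet, age and sex groups of 4 mice, with Benjamini-Hochberg adjustment over all genes, a threshold of 0.05, 24 residual degrees of freedom and two-sided tests. The changes in brown and in white fat alone came from fits of the same groups in 1 depot, and all values after ± are standard errors. Folds on this scale understate the change of genes at low levels. Whether shared numbers pair the libraries was checked on deviations from the group means. These correlated at a median of 0.20 (high-fat) and 0.19 (low-fat) for the same number, and 14 of 16 high-fat and 13 of 16 low-fat mice were over 0.1. For other numbers the median was -0.07. Deviations from a mean cancel within a group, so that value follows largely from the one for the same number and is no separate evidence. The pairing itself comes from the numbers in the titles, and p-values measure the spread between mice so numbered. LG/J was treated in the same way.

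Gene names and positions came from GENCODE vM21 (GRCm38), promoters from RefSeq (GRCm38.p6, by symbol), and 109 of the 12391 genes had no symbol. The members and the 42 gene lists were chosen with earlier results of these data known. Genes were named by rule: the 12 largest differences each way among genes called, with a mean of at least 100, a named symbol and the same sign at both ages and in both sexes, up to 4 each way for sex and strain, 4 per list by p, and 8 fixed genes. Other genes named were chosen after their values were seen. Some items are not reported here. Data were also simulated for 12391 genes, of which 12191 had no depot difference. The fit called 13, 38, 49 and 50 of 50 genes with log2 differences of 0.25, 0.5, 1 and 2, and 0.0902% of the 12191. Far fewer genes differed there than the 40.3% called in the data, so these rates may not carry over.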

Additional observations from a re-analysis of the deposited data

Results flagged for a closer look

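Single animals stood far from the other 3 of their group of 4 in 13 of 256 combinations of gene and group, a number close to the 1 in 20 that chance gives. The values are brown minus white log2 levels of 1 mouse each. On the low-fat diet they were -5.28 for Sdk1, -2.86 for Lvrn and 3.66 for Rims4 in 20-week females. In 30-week low-fat females they were 1.44 for Rims4, 0.81 for Insig1 and 1.39 for Me1, and in a 30-week low-fat male 2.78 for Slc25a1. On the high-fat diet the values were -0.93 for Car3 in a 20-week male, 0.32 for Lvrn in a 20-week female, and -5.17 for Aldh1a7 and -0.62 for Adipoq in 30-week females. The high-fat 30-week males gave -0.75 for Ncan and 1.36 for Fhdc1. Each of these genes kept its direction and its call for the depot difference in all 32 fits that each left out 1 mouse. The low-fat 20-week female with the value for Rims4 is the one with smooth muscle and reproductive tract markers in white fat.

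The depot difference itself differed between the sexes in 8 genes named by size, tested as an interaction in limma. Ppp1r3a, Padi2, Dhrs9 and Il1rn were more positive in males, by 4.48, 2.76, 2.24 and 2.01 on the log2 scale. Reln, Ntrk3, Hsd11b1 and Angptl1 were more positive in females, with male minus female values of -2.34, -2.02, -2.01 and -1.88.

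Between strains the same kind of test separated 8 genes. Itih4, Apcdd1, Eya2 and Slc2a3 were more positive in SM/J, by 2.98, 2.74, 2.58 and 2.50. Tmem56, Ncan, Scn4b and Rims4 were more negative in SM/J, at -2.76, -2.67, -1.84 and -1.84.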

How the results depend on the processing

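Counts of genes called for the depot difference stayed within 1.5 times the main 4998 under every other scaling, pseudocount and filter tried, although the split of directions moved as given in the report. Without the replicate block, which ignores the pairing by mouse, the counts were 4036 for the depot difference, 118 (of 443) for sex and 1653 (of 2266) for strain, and with the block as a random effect 8 genes passed for age. The block moved no other count by over 1.5 times. The strain count was 3832 with total scaling and 5585 with no joint rescaling. Without the 12 mice with muscle markers in brown fat, chosen after the data were seen, the counts were 2312 for the depot difference and 3979 (of 6232) for brown fat, in a fit on 20 mice. Without the 2 low-fat mice whose white fat stood apart, also chosen later, they were 5473 for the depot difference, 5783 (of 4596) for white fat and 539 for sex. Leaving out 1 mouse at a time gave 4666 to 5210 genes for the depot difference, 5876 to 6471 in brown fat, 4097 to 5245 in white fat and 1966 to 2467 for strain. For sex the range was 273 (without 1 low-fat 30-week female) to 797 (without the low-fat 20-week female with smooth muscle markers), with 783 without 1 low-fat 30-week male, 711 without 1 low-fat 20-week male and 288 without the low-fat 30-week male with the high macrophage sum. For age it was 0 to 24, the highest without the low-fat 20-week female with skeletal muscle markers in white fat. Among named genes, Ppp1r3a and Hsd11b1 missed the threshold for sex without the block (adjusted p = 0.084 and 0.051), and Il1rn in 4 of the other settings. With 1 mouse left out, Ppp1r3a missed it in 15 and Il1rn in 21 of 32 fits, with adjusted p up to 0.066 and 0.091. The cause of these shifts was not tested. The number of genes in all 4 tables limits what can be seen, since 2272 genes listed in 1 to 3 tables were not tested.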

Other observations

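Gene groups picked after their values were seen add detail but support nothing by themselves. Of 20 imprinted genes of growth 17 were tested, and 9 had a positive and 3 a negative depot difference (median 0.43). Of all genes 20.1% were positive and 20.2% negative. Beside Nnat, Mest and Peg3 the positive ones were Plagl1, Peg10, Igf2, Grb10, Sgce and Ndn, at 1.11, 0.77, 0.65, 0.56, 0.52 and 0.43. H19, at -1.32, and Zim1, at -1.19, were negative, as was Impact. Under total scaling 12 of the 17 were positive and 1 negative, against 44.5% and 8.28% of all genes there. H19 did not pass in limma there (adjusted p = 0.053) or as deposited (adjusted p = 0.059).

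Within serine and one-carbon synthesis a few genes passed. Phgdh and Psat1, which start the serine pathway, were at 2.68 and 1.27, and the serine and neutral amino acid carriers Slc1a4 and Slc1a5 at 0.77 and 0.51. Psph, the last enzyme of serine synthesis, did not pass (0.00). Shmt1 and Aldh1l1, which handle one-carbon units in the cytosol, were at -0.62 and -0.53. Of the 13 genes tested 4 were positive and 2 negative, against 20.1% and 20.2% of all genes, and the list median was 0.03.

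Of 10 iron genes tested 2 were positive and 3 negative, against 20.1% and 20.2% of all genes. The exporter ferroportin Slc40a1 was at 1.40 and the reductase Steap4 at 1.24, whereas Tfr2, ferritin light chain Ftl1 and the importer Slc11a2 were at -3.24, -0.68 and -0.37. Tfrc, Cp, Hmox1, Fth1 and Steap3 did not pass.

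Genes missing from 1 table were not tested, and 368 genes were in every SM/J table but that of low-fat brown fat, against 35 in every table but that of high-fat brown fat. Of these, Ubd, a ubiquitin-like modifier induced by interferon, had a median of 171 (81.5 to 263) in high-fat brown fat. Whether such genes were filtered by the authors on low values is not given in the sources used here.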
